A study of Mus musculus with 24 samples.

Results

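Genes that mark adipose progenitors, the fibroblast-like cells of fat that can give rise to adipocytes, were followed through 9 sorted populations of mouse gonadal fat. The 10 genes were fixed by name: the growth factor receptors Pdgfra and Pdgfrb, the surface molecules Cd34, Dpp4, Pi16 and Dlk1, the microfibril gene Mfap5, and the proteoglycan genes Lum, Dcn and Bgn. They are 10 of the 22180 genes that the deposited array table represents with a probe row of exactly 1 gene symbol. A gene was tested where at least 2 arrays lay above the median of their own array, which left 15496 genes, and all 10 passed, Dlk1 barely so, with 4 of 24 arrays above their median. Of several rows of a gene, the row with the highest mean over the arrays was used. Only Bgn had another row of its own, which was dimmer and moved in the same direction in all 13 comparisons between groups.

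All mice were male C57Bl/6 animals, with no genetic change named and no age stated in the sources used here. Lean mice received a normal diet (ND), obese mice a high fat diet with 60% fat (HFD), and weight loss (WL) mice 12 weeks of the same high fat diet followed by 8 weeks after its withdrawal. The sources used here do not state how long the HFD mice were fed. The sorted cells were adipose tissue macrophages with or without the surface integrin CD11c (CD11c+ ATM, CD11c- ATM), dendritic cells of the same tissue (ATDC), and preadipocytes (PA). There were 2 arrays each of ND CD11c- ATM, ND ATDC and WL CD11c- ATM, and 3 each of ND PA, HFD CD11c+ ATM, HFD CD11c- ATM, HFD ATDC, HFD PA and WL CD11c+ ATM. ND CD11c+ ATM were too scarce to purify, and no WL ATDC or WL PA were analysed here. Most samples were pools of 3 to 4 mice, so that the p-values describe the spread between pools and not between single mice, and pooling of the WL samples is not given. The design text does not settle whether the ND ATM and ATDC samples were 2 pools of 4 mice each or 2 pools from 4 mice in all. Values are log2 expression levels normalized across arrays. A level is compared between arrays for 1 gene at a time, never between genes, because each probe row has its own brightness. Overlap of arrays between groups is given as a description. The share of all tested genes without overlap was not counted, so a lack of overlap is no result about these genes.

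Adipose progenitors lie around the vessels and in the connective tissue sheets of fat. Pdgfra encodes the alpha receptor for platelet-derived growth factors and is the usual marker of this lineage, while Pdgfrb encodes the beta receptor, which mural cells around vessels also carry. CD34 is a sialomucin that progenitors share with endothelium, mast cells and blood stem cells. DPP4 is a membrane peptidase, and together with PI16 it marks an early interstitial progenitor that lies upstream of committed preadipocytes. DLK1, also called preadipocyte factor 1, is a membrane protein that holds back adipocyte differentiation in culture. MFAP5 binds fibrillin microfibrils, and lumican, decorin and biglycan, the products of Lum, Dcn and Bgn, are small leucine-rich proteoglycans that coat and space collagen fibrils.

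Promoter sequences were taken from RefSeq (GRCm38.p6) for 6 of the 10 genes, each running from 250 bases before to 50 bases after an annotated start. That start need not be the outermost one of the gene. For Pdgfra and Dlk1 the whole window lies inside the annotated gene, and for Dpp4 and Pi16 the start lies inside it. Those of Pdgfra and Bgn are shown because both genes followed the preadipocyte pattern described further on, and that of Dpp4 because it did not. Capitals mark matches, on either strand, to the TATA box pattern TATAAA, the GC box pattern GGGCGG, the CCAAT box or the AP-1 pattern TGANTCA. Positions and strands are chr5:75152001-75152300 on the plus strand for Pdgfra, chrX:73483351-73483650 on the plus strand for Bgn and chr2:62412182-62412481 on the minus strand for Dpp4.
Pdgfra: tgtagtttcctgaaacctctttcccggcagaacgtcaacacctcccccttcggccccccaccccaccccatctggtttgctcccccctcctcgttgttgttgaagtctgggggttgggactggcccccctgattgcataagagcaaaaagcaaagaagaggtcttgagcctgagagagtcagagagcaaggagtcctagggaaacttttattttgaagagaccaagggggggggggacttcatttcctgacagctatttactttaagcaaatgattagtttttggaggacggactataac
Bgn: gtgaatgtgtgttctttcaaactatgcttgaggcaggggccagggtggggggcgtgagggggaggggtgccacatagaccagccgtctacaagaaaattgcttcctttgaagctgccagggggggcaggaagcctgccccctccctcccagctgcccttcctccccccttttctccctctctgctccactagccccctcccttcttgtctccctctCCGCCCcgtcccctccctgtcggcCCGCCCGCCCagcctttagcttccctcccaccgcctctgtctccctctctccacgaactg
Dpp4: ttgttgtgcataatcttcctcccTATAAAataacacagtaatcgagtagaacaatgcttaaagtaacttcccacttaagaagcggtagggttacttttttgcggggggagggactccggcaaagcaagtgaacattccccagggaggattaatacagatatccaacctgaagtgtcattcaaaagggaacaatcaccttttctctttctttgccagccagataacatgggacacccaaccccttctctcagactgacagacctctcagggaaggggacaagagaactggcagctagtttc
The Bgn window holds 3 matches to GGGCGG, all read on the opposite strand as CCGCCC, and the pair nearest the start overlaps. GGGCGG was found in 35.7% of the 32851 mouse promoters of this length. The Dpp4 window holds 1 TATAAA, near its far end, with the first base at -227 from the annotated start. That motif was found in 13.6% of promoters, and the Pdgfra window holds none of the 4. The E-box pattern CANNTG, present in 72.3% of promoters and not capitalised, matched 2 times in Pdgfra, 1 time in Bgn and 1 time in Dpp4. GC content was 63.7% in the Bgn window, 51.0% in Pdgfra and 45.3% in Dpp4, against a median of 52.7% over all promoters. Of the windows not shown, that of Pi16 holds 1 CCAAT and those of Cd34 and Dlk1 hold none of the 5 patterns. Dcn and Lum are adjacent on chromosome 10 in this assembly, with 0 annotated genes between them.

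The arrays were checked against their labels before the genes were compared. A macrophage list of 13 measured genes, including Adgre1, Csf1r and C1qa, had a median level of 9.43 to 10.65 on the 13 ATM arrays and 4.17 to 8.08 on the PA arrays, while the ATDC arrays, at 8.15 to 9.48, overlapped the ATM range. A dendritic list of 10 genes, including Flt3 and Zbtb46, read 7.77 to 8.41 on the ATDC arrays and no higher than 4.73 elsewhere. A general mesenchymal list of 19 genes, mostly collagens and other stromal genes, read 8.04 to 9.29 in PA. WL CD11c- ATM, at 7.29 and 8.50, overlapped the PA range, and the remaining arrays read 4.13 to 7.58. Arrays of 1 group correlated with each other at 0.878 to 0.982 over the tested genes. Agreement was lowest in the WL groups: the mean correlation of an array with its own group was 0.881 to 0.918 there and 0.936 to 0.980 elsewhere. HFD CD11c- ATM replicate 3 and HFD CD11c+ ATM replicate 1 were the highest of their group for 9 of the 10 progenitor genes, and results that rest on them are also given without both. They were picked for being high in these genes, so leaving them out lowers most HFD ATM means by construction. Calls gained that way in WL or PA against HFD ATM are therefore no support for a difference. ND CD11c- ATM replicate 1 was the higher of its 2 arrays for 9 of the 10, Mfap5 being the exception, and leaving it out is among the omissions of single arrays.

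**Figure D1:**
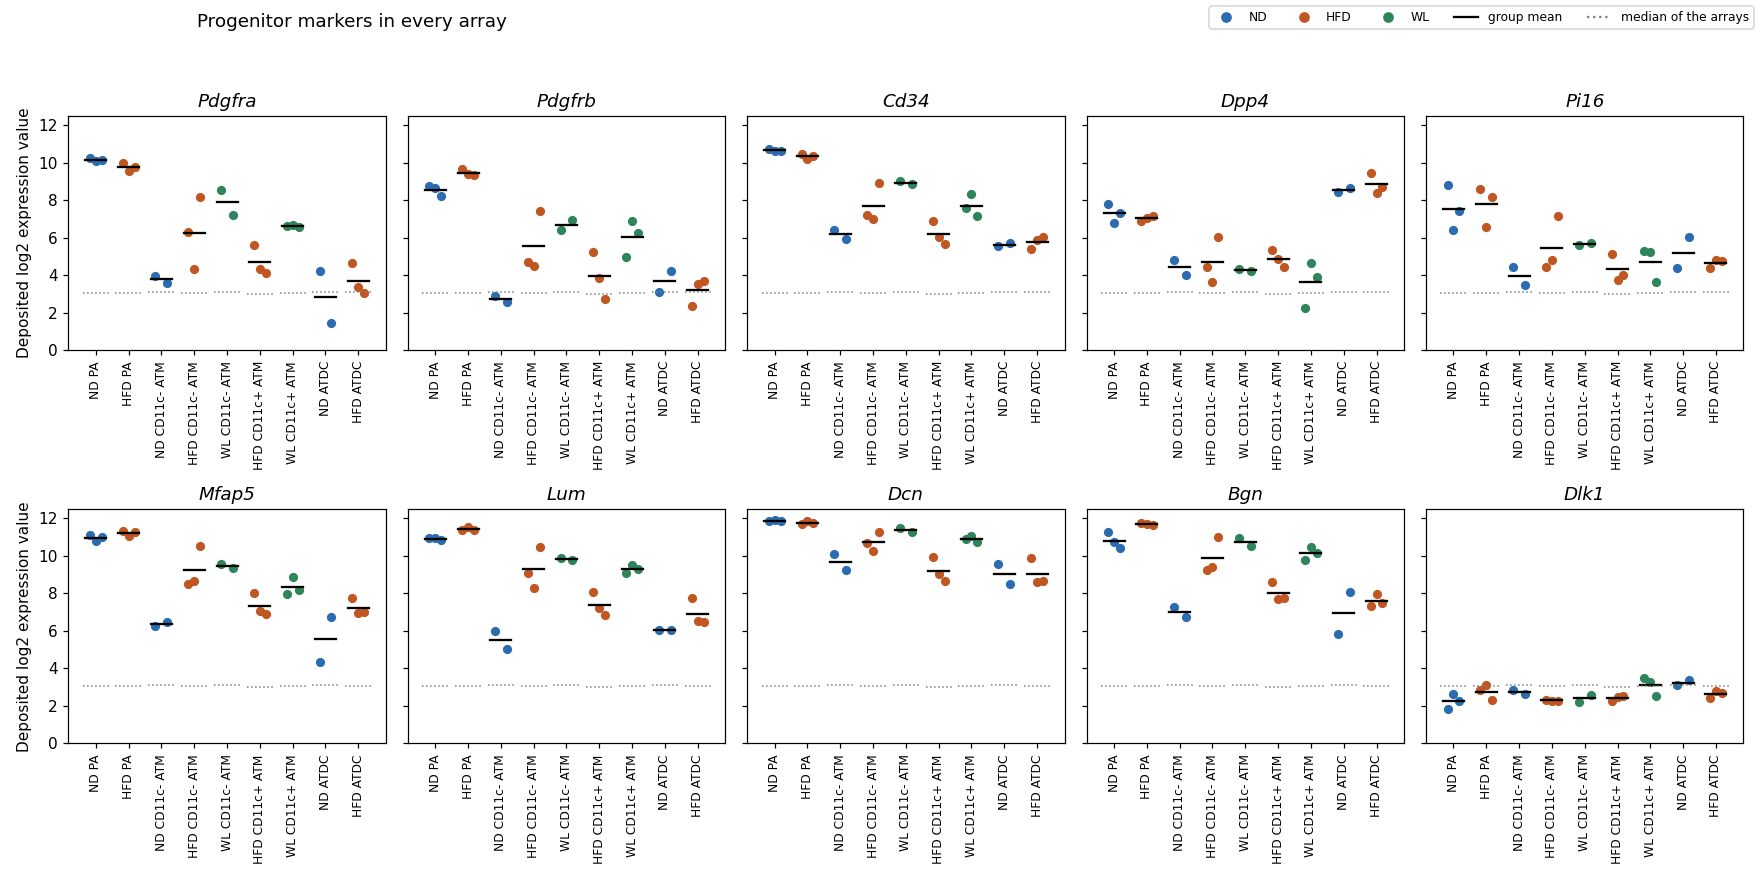
Deposited log2 expression value (vertical axis) of each of the 10 genes on every array, by sorted population; blue points are ND, orange HFD and green WL arrays, black bars are group means and dotted lines the median of the arrays. Pdgfra, Pdgfrb, Cd34, Mfap5, Lum and Dcn were highest in PA, Dpp4 was highest in ATDC, and Dlk1 stayed near or below the dotted line.

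Preadipocytes carried the highest levels of 8 of the 10 genes. Against ND CD11c- ATM, 9 genes were higher in ND PA at an adjusted p below 0.05, by 2.18 ± 0.41 (Dcn, standard error of the fit) to 6.38 ± 0.82 log2 units (Pdgfra), where 12.6% of all tested genes were called higher. Against ND ATDC, 8 were higher (16.4% of tested genes) and 1, Dlk1, was lower (13.2%). Against HFD CD11c- ATM, 8 were higher in HFD PA (11.0%), against HFD CD11c+ ATM 9 (11.7%), and against HFD ATDC 8 were higher (14.8%) and 1, Dpp4, was lower (13.0%). The median difference over the 10 genes in these 5 comparisons ran from 2.23 to 4.35 log2 units, while that over all tested genes lay between -0.067 and -0.0012. The test was limma's moderated test on 1 fit of all 24 arrays, with Benjamini-Hochberg adjustment over all tested genes. Its standard errors rest on the spread within all 9 groups, not only within the groups compared.

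The receptor gene Pdgfra had the largest differences of the 10 genes in lean mice. It read 10.23, 10.12 and 10.12 on the ND PA arrays and 9.99, 9.55 and 9.79 on the HFD PA arrays. It read 4.22 and 1.45 in ND ATDC and 4.66, 3.38 and 3.08 in HFD ATDC. No PA array came near an ATDC array, and the lower ND ATDC array lay below its array's median, so that the ND difference was at least 6.47 log2 units when that median is taken as the floor. In HFD mice the difference from ATDC was 6.07 ± 0.73 log2 units (adjusted p 2.43e-06). Against HFD CD11c- ATM it was 3.51 ± 0.73 (adjusted p 0.0013), and 4.46 without the pair of high arrays.

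The second receptor gene, Pdgfrb, read 8.75, 8.65 and 8.22 in ND PA and 9.67, 9.40 and 9.35 in HFD PA. In ND CD11c- ATM it read 2.88 and 2.57, both below the array median. The PA arrays did not overlap any other group, and the difference in lean mice was at least 5.43 log2 units against that floor. HFD PA lay at least 5.45 above HFD CD11c+ ATM and at least 6.03 above HFD ATDC, where 1 of 3 arrays in each group again lay below its median. The order of the groups below PA was WL CD11c- ATM, WL CD11c+ ATM, HFD CD11c- ATM, HFD CD11c+ ATM, ND ATDC, HFD ATDC and ND CD11c- ATM, and each of these overlapped its neighbour.

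Cd34 was tightly grouped in PA, at 10.74, 10.65 and 10.63 on ND and 10.48, 10.22 and 10.38 on HFD arrays. It read 5.56 and 5.71 in ND ATDC and 5.42, 5.89 and 6.05 in HFD ATDC. The ATDC groups had the lowest means, though their arrays overlapped those of HFD CD11c+ ATM and ND CD11c- ATM, and they lay 5.04 ± 0.45 log2 units under PA in lean mice (adjusted p 9.69e-08) and 4.57 ± 0.40 under PA in obese mice (adjusted p 8.12e-08). A further probe row shared by Cd34 and the gene model Gm16897 was not used.

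Pi16 was also highest in PA but spread more within the PA groups than the other genes did. It read 8.79, 6.39 and 7.44 in ND PA and 8.60, 6.60 and 8.15 in HFD PA. HFD CD11c- ATM replicate 3, at 7.14, fell inside that range, while the other arrays of its group read 4.41 and 4.81. The difference between HFD PA and HFD CD11c- ATM was 2.33 ± 0.71 log2 units (adjusted p 0.024). That call was lost when HFD CD11c- ATM replicate 1 or 2 or HFD PA replicate 1 or 3 was left out, with differences of 1.81 to 3.17 over all 6 omissions. In lean mice PA lay 2.34 ± 0.80 above ATDC (adjusted p 0.032), a call lost without ND ATDC replicate 1, ND PA replicate 1 or ND PA replicate 3. Against ND CD11c- ATM, at 4.42 and 3.46, the difference was 3.60 ± 0.80 and was called in all 5 omissions of an array.

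Mfap5 and the proteoglycan genes were high in PA and clearly measured in the immune populations too. Mfap5 read 11.11, 10.81 and 10.99 in ND PA and 11.33, 11.08 and 11.29 in HFD PA. Lum read 10.98, 10.96 and 10.84 in ND PA and 11.36, 11.53 and 11.37 in HFD PA. For Mfap5 and Lum every PA array lay above every immune array, and the closest was HFD CD11c- ATM replicate 3, with 10.52 for Mfap5 and 10.46 for Lum. In HFD mice PA exceeded CD11c- ATM by 2.00 ± 0.51 log2 units for Mfap5 (adjusted p 0.0069) and by 2.12 ± 0.43 for Lum (adjusted p 0.0010). The Mfap5 call, and that of Bgn at 1.81 ± 0.47, missed the threshold without HFD CD11c- ATM replicate 1, at adjusted p 0.053 and 0.057.

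Among the 8 genes that were highest in PA, Dcn had the smallest difference from the other cells in every comparison but that with ND ATDC, where Pi16 had. It read 11.87, 11.89 and 11.87 in ND PA and 11.72, 11.86 and 11.75 in HFD PA. In ND CD11c- ATM it read 10.13 and 9.26, and in ND ATDC 9.57 and 8.51. PA stood 2.18 ± 0.41 log2 units above ND CD11c- ATM (adjusted p 0.00046) and 2.84 ± 0.41 above ND ATDC (adjusted p 2.11e-05). Against HFD CD11c- ATM, at 10.68, 10.27 and 11.28, the difference of 1.03 ± 0.37 did not pass the threshold (adjusted p 0.056). It was 1.30 and passed (adjusted p 0.016) without the pair of high arrays, an omission that by its choice favours a larger difference.

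The lean PA arrays of Bgn overlapped macrophage arrays. Bgn read 11.26, 10.72 and 10.43 in ND PA, 10.96 and 10.55 in WL CD11c- ATM, and 11.00 on HFD CD11c- ATM replicate 3. The HFD PA arrays, at 11.74, 11.72 and 11.66, lay above all other arrays. In ND ATDC Bgn read 5.87 and 8.06, and in HFD ATDC 7.33, 7.99 and 7.50. PA exceeded ATDC by 3.84 ± 0.53 log2 units in lean mice (adjusted p 9.96e-06) and by 4.10 ± 0.47 in obese mice (adjusted p 1.37e-06).

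Dpp4 had a different order, with dendritic cells first. It read 8.44 and 8.65 in ND ATDC and 9.47, 8.37 and 8.71 in HFD ATDC. In PA it read 7.80, 6.78 and 7.33 in ND and 6.90, 7.07 and 7.18 in HFD mice, and on the ATM arrays it lay between 2.25 and 6.02. The ATDC arrays lay above all others, the PA arrays came next, and the ATM arrays were lowest. HFD PA stood below HFD ATDC by a difference of -1.80 ± 0.54 log2 units (adjusted p 0.016), which was not called without HFD ATDC replicate 1 or HFD PA replicate 1. The lean difference, -1.24 ± 0.60, did not pass (adjusted p 0.14), although a fit of those 5 arrays alone gave an adjusted p of 0.036. PA exceeded ND CD11c- ATM by 2.89 ± 0.60 (adjusted p 0.0012), HFD CD11c- ATM by 2.35 ± 0.54 (adjusted p 0.0031) and HFD CD11c+ ATM by 2.17 ± 0.54 (adjusted p 0.0047). T lymphocytes carry DPP4, known there as CD26, and lists of T and NK cell genes were also higher in ATDC than in PA, at medians of 4.63 to 6.16 against 2.41 to 3.22 for 7 T cell genes and 4.80 to 7.34 against 2.47 to 3.92 for 8 NK cell genes. By diet, the T cell list read 6.08 to 6.16 in ND ATDC and 4.63 to 5.76 in HFD ATDC. The NK cell list read 7.16 to 7.34 in ND ATDC and 4.80 to 7.12 in HFD ATDC. The dendritic list of 10 genes read 7.77 to 8.41 in ATDC and 2.90 to 4.07 in PA. The part of dendritic, T or NK cells in the Dpp4 level was not tested.

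Dlk1 was at the bottom of the measured range. It read 1.85, 2.65 and 2.25 in ND PA, 2.83, 3.11 and 2.33 in HFD PA, and 2.21 to 3.51 on the other 18 arrays. All 8 pairs of groups next to each other in its order overlapped. The call in lean mice, PA against ATDC at 3.10 and 3.36, was -0.98 ± 0.29 log2 units (adjusted p 0.015), but both groups lay near their array medians, 0 of the 3 PA arrays lay above, and against that floor ATDC was at least 0.18 log2 units higher. Leaving out ND ATDC replicate 2 or ND PA replicate 1 ended that call. The deposited values show no Dlk1 level in PA above that of the median probe row, except on HFD PA replicate 2.

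Lists of related genes were counted in the same 5 comparisons of PA. Over all 15496 tested genes, 11.0% to 16.4% were called higher in PA and 1500 to 2092 genes lower. Counts of 1 or 2 in a short list are not set apart from those shares and are no result about the list. Of 10 tested other small leucine-rich proteoglycan genes, 8 were higher in ND PA than in ND CD11c- ATM, 7 than in ND ATDC, and 8 in each HFD comparison. Of 15 tested microfibril and elastic fibre genes, 11 to 13 were higher, and 1 was lower in ND PA than in ND CD11c- ATM. Of 5 platelet-derived growth factor genes and their receptor-like relative, 2 or 3 were higher and 0 to 3 lower, and of 6 tested prolyl peptidase relatives of Dpp4, 1 or 2 were higher and 1 or 2 lower. Of 8 tested Notch ligands and receptors, the family of Dlk1, 0 to 2 were higher and 1 was lower, and Podxl, the tested relative of Cd34, was called in 0 of the 5 comparisons. Of 10 committed preadipocyte markers, 4 to 6 were higher and 0 to 3 lower. Other markers of interstitial progenitors were higher in PA for 3 to 7 of 9 genes. Macrophage genes were lower in PA than in CD11c- ATM for 13 of 13 genes under both diets.

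High fat feeding went with higher matrix genes in CD11c- macrophage samples. Lum, Bgn and Mfap5 were higher in HFD than in ND CD11c- ATM, 3 of 10 genes, where 0.439% of all tested genes were called higher. The median difference of the 10 genes was 2.00 log2 units and that of all tested genes 0.01. Lum read 6.02 and 5.03 in ND and 9.11, 8.32 and 10.46 in HFD, a difference of 3.77 ± 0.48 log2 units, or 13.6-fold (adjusted p 0.00054). Bgn read 7.30 and 6.73 in ND and 9.27, 9.43 and 11.00 in HFD, a difference of 2.89 ± 0.53 (adjusted p 0.014). Mfap5 read 6.25 and 6.46 in ND and 8.49, 8.69 and 10.52 in HFD, a difference of 2.88 ± 0.57 (adjusted p 0.023). In all 3 genes every HFD array lay above both ND arrays, and replicate 3 was the highest. Without the pair of high arrays Lum kept its call at 3.19 (adjusted p 0.00085), while Bgn at 2.33 and Mfap5 at 2.24 did not (adjusted p 0.064 and 0.095). Bgn and Mfap5 were also not called without either ND array, and a fit of these 5 arrays alone called 0 of the 3.

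Pdgfra, Pdgfrb and Cd34 were higher in HFD CD11c- ATM without passing the test. Pdgfra read 3.97 and 3.59 in ND and 6.31, 4.32 and 8.16 in HFD, a difference of 2.49 ± 0.82 log2 units (adjusted p 0.25). Pdgfrb read 2.88 and 2.57 in ND and 4.70, 4.50 and 7.41 in HFD, at least 2.42 log2 units higher against the array median as floor (adjusted p 0.12). Cd34 read 6.43 and 5.93 in ND and 7.19, 6.98 and 8.92 in HFD, a difference of 1.52 ± 0.45 (adjusted p 0.17). None of these 3 genes overlapped between diets, and all 3 were highest in replicate 3. How often a tested gene shows no overlap between these groups was not counted. Without HFD CD11c- ATM replicate 2, where Pdgfra was lowest, Pdgfra passed at 3.46 (adjusted p 0.025), and so did Pdgfrb (adjusted p 0.045). Without the pair of high arrays Pdgfra differed by 1.54 (adjusted p 0.80), Cd34 by 0.91 (adjusted p 0.51) and Pi16 by 0.67, and Pdgfrb had an adjusted p of 0.30. Dcn differed by 1.05 ± 0.41 (adjusted p 0.41) with no overlap. Pi16 differed by 1.52 ± 0.80 and Dpp4 by 0.29 ± 0.60, both with overlapping arrays, and Dpp4 turned to -0.37 without replicate 3. Dlk1 lay below the array median on all 5 arrays.

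Other stromal genes moved in the same samples. Of 18 tested general mesenchymal genes, 3 rose in HFD CD11c- ATM and 0 fell: the collagen genes Col6a1 (3.90 ± 0.54 log2 units), Col3a1 (3.53 ± 0.54) and Col1a2 (3.14 ± 0.42). That list's median level was 5.57 and 4.31 on the ND arrays and 6.42, 5.96 and 7.17 on the HFD arrays, highest in the replicate where the progenitor genes were highest. Of 10 committed preadipocyte markers, 2 rose, the adipogenic nuclear receptor gene Pparg (2.09 ± 0.29) and the lipase gene Lpl (1.39 ± 0.29), both of which macrophages can also express. Of the 10 other proteoglycan and 15 microfibril genes, 0 passed. The macrophage list read 10.53 and 10.65 in ND and 10.20, 10.07 and 10.17 in HFD, with 0 of 13 genes called. The mesenchymal level moved with the 3 genes, and its part in their rise was not tested. In sorted bulk samples, more cells that carry a gene and more of its RNA per cell cannot be told apart.

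**Figure D2:**
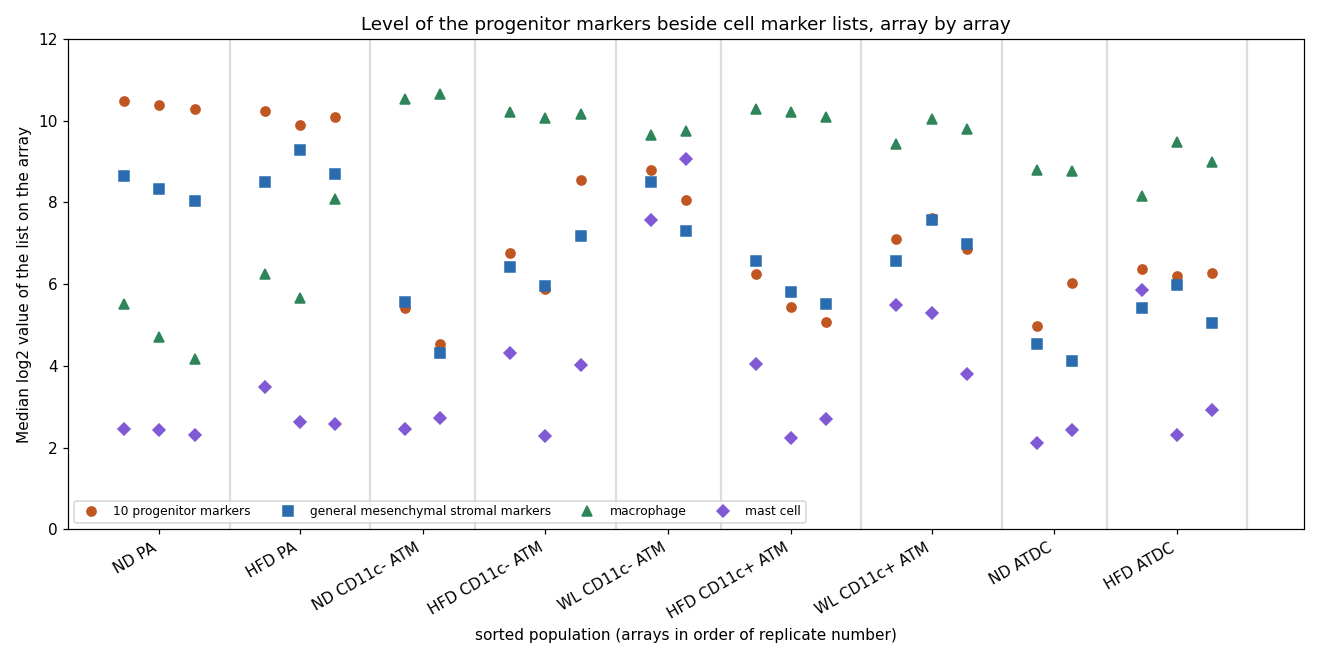
Median log2 value (vertical axis) of the 10 progenitor genes and of the general mesenchymal, macrophage and mast cell lists on each array, by sorted population and replicate number. The progenitor genes run from 4.53 on ND CD11c- ATM replicate 2 to 10.49 on ND PA replicate 1, the mesenchymal list from 4.13 on ND ATDC replicate 2 to 9.29 on HFD PA replicate 2, and the mast cell list stands out in WL CD11c- ATM.

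In CD11c- ATM of the weight loss group, 8 weeks after the high fat diet was withdrawn, most of the genes stood well above the lean level. Compared with ND, 7 of 10 genes were higher in WL CD11c- ATM, where 3.23% of tested genes were called higher, and 0 were lower. The median difference of the 10 genes was 2.93 log2 units, against -0.07 over all tested genes. Lum, at 9.90 and 9.81, was 4.33 ± 0.53 log2 units above ND (20.1-fold, adjusted p 7.02e-05). Bgn, at 10.96 and 10.55, was 3.74 ± 0.58 above (13.4-fold, adjusted p 0.00078). Mfap5, at 9.56 and 9.35, was 3.10 ± 0.62 above (adjusted p 0.0054). For these genes the WL arrays lay close together and far above the ND arrays, and Lum, Bgn, Mfap5 and Cd34 were called in all 4 omissions of an array.

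Both receptor genes, Cd34 and Dcn passed here as well. Pdgfra, at 8.57 and 7.24, was 4.12 ± 0.90 log2 units above ND (17.4-fold, adjusted p 0.0088). Pdgfrb, at 6.40 and 6.97, was at least 3.57 log2 units above ND with the array median as floor (adjusted p 0.0062). Cd34, at 9.00 and 8.89, was 2.76 ± 0.49 above ND (adjusted p 0.0025), and Dcn, at 11.49 and 11.28, was 1.69 ± 0.45 above (adjusted p 0.032). The Pdgfra call was lost without ND replicate 2 (3.94) or WL replicate 1 (3.46), the Pdgfrb call without ND replicate 2 (adjusted p 0.058), and the Dcn call without ND replicate 2 or either WL array (1.25 to 2.12 over the 4 omissions). Pi16, at 5.61 and 5.70, lay above both ND arrays by 1.72 ± 0.88 but did not pass (adjusted p 0.29). Dpp4, at 4.33 and 4.24, lay between the ND arrays (-0.13 ± 0.66), and Dlk1 was below the array medians in both groups.

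Related matrix genes rose in these samples too, while few other progenitor markers were called. Of 10 tested other proteoglycan genes, 5 rose and 0 fell, led by Prelp (4.06 ± 0.69 log2 units), Ecm2 (3.43 ± 0.71) and Aspn (3.39 ± 0.94). Of 15 microfibril and elastic fibre genes, 6 rose, led by Loxl1, a cross-linking enzyme of elastin (3.34 ± 0.75), Efemp1 (3.22 ± 0.63) and Fbln2 (3.06 ± 0.71). Of 5 genes of platelet-derived growth factors and their receptor-like relative, the ligand gene Pdgfc fell by 1.73 ± 0.37, the 1 call. Of 4 tested relatives of Pi16, Crispld2 rose (2.55 ± 0.70), and the sialomucin gene Podxl, the 1 tested relative of Cd34, rose by 1.11 ± 0.30. Among 9 other interstitial progenitor markers only 1 rose, Cd248 (3.11 ± 0.65). Here too, counts of 1 in a short list are no result about the list. Among 7 markers of anti-adipogenic stromal cells 3 rose, F3 (4.08 ± 0.80), Cygb (2.97 ± 0.83) and Gdf10 (1.93 ± 0.40).

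Markers of other cells moved with these genes. Of 18 general mesenchymal genes, 9 rose in WL against ND CD11c- ATM, and the list read 8.50 and 7.29 in WL, highest on the array where Pdgfra was highest. Of 9 mast cell genes, 9 rose, with Tpsb2 at 8.55 ± 1.22 and Cpa3 at 7.73 ± 1.51 log2 units, and that list read 7.57 and 9.05 in WL against 2.45 and 2.72 in ND. Of 10 endothelial genes, 4 rose, among them Kdr (2.26 ± 0.61) and Pecam1 (2.25 ± 0.49). The mesothelial list of 10 genes stayed low, at 3.64 and 3.26 in WL and 2.73 and 2.62 in ND, with 0 of 5 tested genes called. The macrophage list read 9.64 and 9.74 in WL against 10.53 and 10.65 in ND, with 1 of 13 genes called, Cd163, at -2.12 ± 0.63. The NK cell list read 5.11 and 5.18 against 3.68 and 3.90, and the cytotoxic granule gene Gzmb rose by 4.41 ± 0.62. A list of 15 genes induced by tissue dissociation read 9.74 and 9.64 against 9.20 and 9.22, with Nr4a1 higher (4.16 ± 0.62) and Hspa1a lower (-2.14 ± 0.58). Mast cells and endothelium carry CD34, and the part of any of these lists in the results was not tested.

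Against HFD CD11c- ATM, 0 of the 10 genes differed in WL CD11c- ATM under limma's test, where 2.96% of tested genes were called in either direction and 2739 genes had an unadjusted p below 0.05. Differences ran from -0.42 ± 0.60 log2 units for Dpp4 to 1.64 ± 0.82 for Pdgfra (adjusted p 0.31), with a median of 0.60 over the 10 genes. Every gene overlapped between these groups, and HFD replicate 3 lay among or above the WL arrays. Without the pair of high arrays 2 genes passed, Cd34 at 1.86 (adjusted p 0.0048) and Pdgfrb at 2.09 (adjusted p 0.0498). The arrays left out were chosen for high values of these genes, which favours such gains. Mfap5 and Lum, called against ND, differed from HFD by 0.22 (95% interval -0.97 to 1.41) and 0.56 (-0.45 to 1.56). Neither interval excludes a difference of 1 log2 unit.

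**Figure D3:**
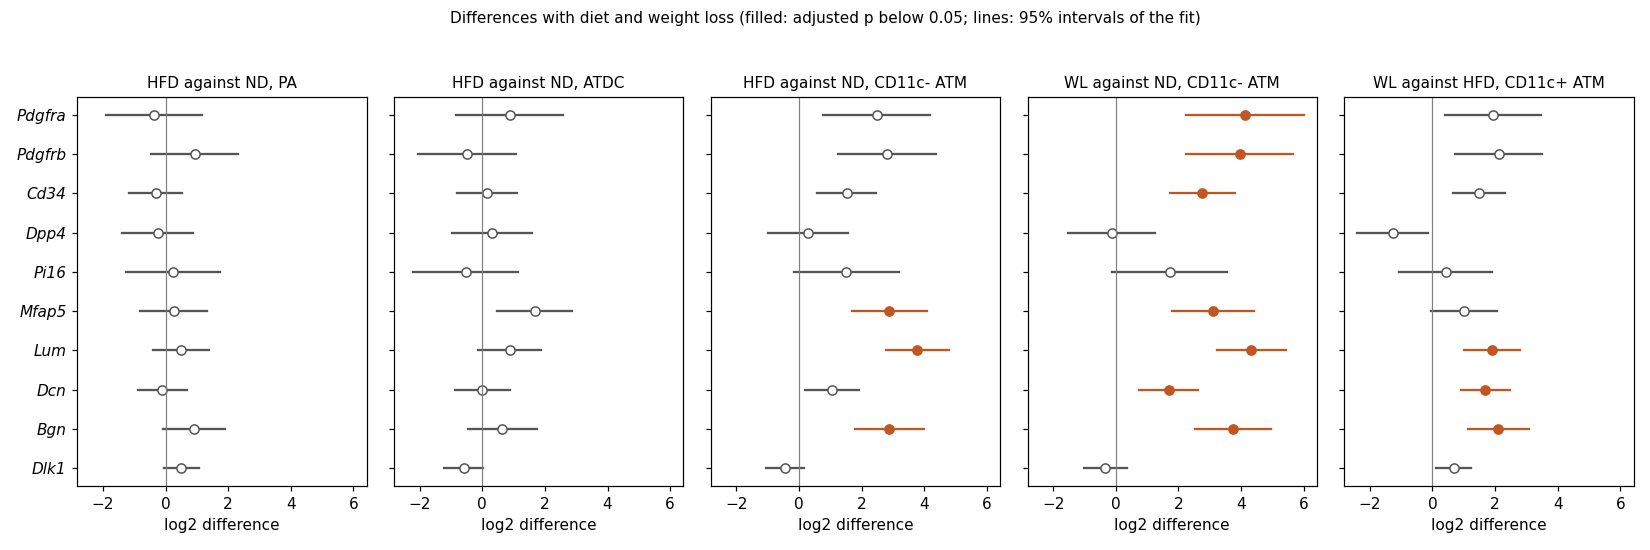
Log2 difference (horizontal axis) of each gene in 5 comparisons, with the 95% interval of the fit; filled points have an adjusted p below 0.05. The filled points are Mfap5, Lum and Bgn in HFD against ND CD11c- ATM, 7 genes in WL against ND CD11c- ATM, and Lum, Dcn and Bgn in WL against HFD CD11c+ ATM.

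In CD11c+ ATM the proteoglycan genes were higher in WL than in HFD mice. Lum, Dcn and Bgn were called higher, 3 of 10 genes, against 0.632% of all tested genes, with a median difference of 1.59 log2 units over the 10 genes and -0.10 over all tested genes. Lum read 8.10, 7.22 and 6.85 in HFD and 9.10, 9.49 and 9.29 in WL, a difference of 1.90 ± 0.43 (adjusted p 0.036). Dcn read 9.97, 9.03 and 8.68 in HFD and 10.93, 11.06 and 10.76 in WL, a difference of 1.69 ± 0.37 (adjusted p 0.033). Bgn read 8.63, 7.73 and 7.74 in HFD and 9.79, 10.49 and 10.15 in WL, a difference of 2.11 ± 0.47 (adjusted p 0.035). The groups did not overlap in any of the 3. All 3 calls were lost without HFD replicate 2 or 3 or WL replicate 1 or 2 (differences of 1.42 to 2.41 over the omissions) and in a fit of these 6 arrays alone. Without the pair of high arrays 5 genes were called, Pdgfrb at 2.75 and Cd34 at 1.83 being added. The way that pair was chosen favours such additions.

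Pdgfra, Pdgfrb and Cd34 in CD11c+ ATM went the same way short of the threshold. Pdgfra read 5.60, 4.34 and 4.14 in HFD and 6.61, 6.69 and 6.59 in WL, a difference of 1.93 ± 0.73 log2 units (adjusted p 0.16). Cd34 read 6.90, 6.04 and 5.68 in HFD and 7.61, 8.32 and 7.14 in WL, a difference of 1.49 ± 0.40 (adjusted p 0.068). Both were free of overlap, and Cd34 passed when the arrays were centred on their medians (adjusted p 0.035). Pdgfrb, at 5.21, 3.86 and 2.75 in HFD and 4.99, 6.90 and 6.27 in WL, differed by 2.11 ± 0.67 (adjusted p 0.10), and Mfap5 by 1.00 ± 0.51 (adjusted p 0.28), with overlapping arrays. Dpp4 read 5.32, 4.87 and 4.46 in HFD and 2.25, 4.66 and 3.93 in WL (-1.27 ± 0.54, adjusted p 0.20). The mesenchymal list read 6.56, 7.58 and 6.97 in WL against 6.57, 5.81 and 5.51 in HFD, with 1 of 18 genes called, and the mast cell list read 5.50, 5.31 and 3.81 against 4.05, 2.23 and 2.69, with 0 of 9 called. Their part was not tested.

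CD11c+ and CD11c- macrophages of the same diet group were then compared. In HFD mice 0 of 10 genes were called, where 0.00645% of tested genes, 1 gene, was called in either direction and 997 had an unadjusted p below 0.05. Without being called, Lum (-1.91 ± 0.43 log2 units, adjusted p 0.31), Mfap5 (-1.90 ± 0.51), Bgn (-1.87 ± 0.47), Dcn (-1.52 ± 0.37) and Cd34 (-1.49 ± 0.40) were lower on every CD11c+ array than on every CD11c- array. How many of all tested genes were separated in this way was not counted. Pdgfra and Pdgfrb differed by -1.57 and -1.60 with overlap, and Dpp4 by 0.18 ± 0.54. Lum passed with limma's array weights (-2.05, adjusted p 0.034). In WL mice 0 of 10 genes were called, against 1.34% of tested genes in either direction and 2280 with an unadjusted p below 0.05. The largest of these differences were -1.28 ± 0.82 for Pdgfra and -1.25 ± 0.45 for Cd34 (adjusted p 0.49 and 0.18). Here too, Pdgfra, Cd34, Pi16, Mfap5, Lum, Dcn and Bgn were lower on every CD11c+ array than on every CD11c- array.

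In the preadipocytes themselves no gene of the 10 differed between diets under limma's test, where 2.59% of tested genes were called in either direction and 1804 had an unadjusted p below 0.05. The largest positive differences were Pdgfrb, at 0.94 ± 0.67 log2 units (adjusted p 0.71), and Bgn, at 0.90 ± 0.47 (adjusted p 0.50). In both genes all 3 HFD arrays lay above all 3 ND arrays. Pdgfra differed by -0.38 ± 0.73, Cd34 by -0.31 ± 0.40 and Dcn by -0.10 ± 0.37, with all 3 HFD arrays below all 3 ND arrays. The share of tested genes with arrays separated in this way, up or down, was not counted. Lum differed by 0.50 ± 0.43 (95% interval -0.40 to 1.40), Mfap5 by 0.26 ± 0.51, Pi16 by 0.24 ± 0.72 and Dpp4 by -0.25 ± 0.54. The intervals of Pdgfra (-1.91 to 1.15) and Pdgfrb (-0.46 to 2.33) leave room for changes of 1 log2 unit either way for the first and upward for the second. For Pdgfra the standard deviation was 0.066 in ND PA and 0.217 in HFD PA, but 1.92 in HFD CD11c- ATM. The fit pools the spread of all groups, so these intervals and tests do not describe the spread of the PA arrays alone.

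Relatives of these genes did move in HFD PA. Of 15 microfibril genes 2 rose, Mfap2 (2.43 ± 0.49 log2 units) and Mfap4 (1.81 ± 0.46), and of 8 tested Notch ligands and receptors Notch3 rose (1.66 ± 0.31). Of 10 committed preadipocyte markers 2 rose, the adhesion gene Icam1 (1.79 ± 0.25) and the fatty acid carrier gene Cd36 (1.34 ± 0.20). Of 18 general mesenchymal genes the ectonucleotidase gene Nt5e fell, by 3.64 ± 0.24, and 0 rose. Of 13 macrophage genes 8 rose, and that list read 6.26, 5.67 and 8.08 in HFD PA against 5.52, 4.70 and 4.17 in ND PA. Acta2, of smooth muscle, rose by 2.41 ± 0.47 and Pecam1, of endothelium, by 1.56 ± 0.40. The pericyte and smooth muscle list of 10 genes read 4.95 to 5.24 in HFD PA against 4.21 to 4.61 in ND PA. The endothelial list of 10 genes read 4.67 to 4.82 against 3.13 to 4.55. Over all 15496 tested genes, 262 were called higher and 139 lower. Counts of 1 or 2 in a short list are no result about it. The part of macrophages, mural cells or endothelium in these rises was not tested.

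In dendritic cells 0 of the 10 genes differed between diets, where 0.258% of tested genes were called in either direction and 1335 had an unadjusted p below 0.05. Mfap5 read 4.37 and 6.74 in ND and 7.75, 6.94 and 6.99 in HFD, a difference of 1.67 ± 0.57 log2 units (adjusted p 0.32). All HFD arrays were above both ND arrays, and the difference passed, at 2.85 (adjusted p 0.033), without ND replicate 2. Lum read 6.06 and 6.03 in ND and 7.74, 6.51 and 6.50 in HFD, a difference of 0.87 ± 0.48 (adjusted p 0.68). Leaving aside Dlk1, whose HFD arrays all lay below the array median, the other differences ran from -0.54 ± 0.80 for Pi16 to 0.87 ± 0.82 for Pdgfra, with overlapping arrays and 95% intervals that include 0. The Pdgfra value rests on ND replicate 2, below its array median, and with that median as floor the difference was at least 0.021. Dpp7, a lysosomal peptidase related to Dpp4, rose by 1.72 ± 0.23, 1 of 6 tested relatives.

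Whether the diet difference itself varied between cell types was tested for each gene. The HFD minus ND difference of Lum was smaller in PA (0.50) than in CD11c- ATM (3.77), by -3.27 ± 0.65 log2 units (adjusted p 0.034), 1 of 10 genes where 0.168% of tested genes were called lower. It was -2.69 (adjusted p 0.035) without the pair of high arrays, and it was lost in 7 of the 11 omissions of a single array. Those were the omissions of either ND CD11c- ATM array, ND PA replicate 2 or 3, HFD CD11c- ATM replicate 1, and HFD PA replicate 1 or 3, with differences of -3.77 to -2.69 over all 11. Between PA and ATDC 0 of 10 genes differed in their diet effect (0.265% of tested genes in either direction, 1475 with an unadjusted p below 0.05). Between ATDC and CD11c- ATM 0 of 10 did (0.0581%, 1123 with an unadjusted p below 0.05), and Lum came nearest, at -2.90 ± 0.68 (adjusted p 0.18).

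**Figure D4:**
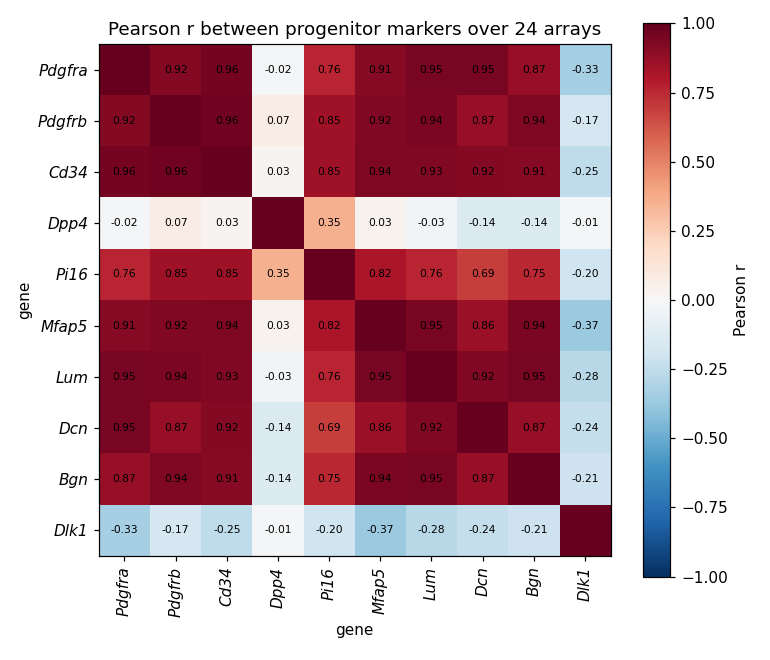
Pearson correlation (colour and number, scale -1 to 1) between each pair of the 10 genes over 24 arrays. The 8 genes other than Dpp4 and Dlk1 correlate at 0.69 to 0.96, while Dpp4 and Dlk1 stand apart from them.

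Across the 24 arrays 8 of the genes followed a common pattern, given here as a description because the arrays share groups. Their 28 pairwise Pearson correlations lay between 0.690 and 0.962, with a median of 0.918. Correlations of Dpp4 with the other genes lay between -0.141 and 0.355, the highest with Pi16, and those of Dlk1 between -0.371 and -0.0139. The tested genes most like each of the 10 over these arrays were named by a fixed rule, the 2 highest correlations. Pdgfra was most like the laminin gene Lama2 (r = 0.980) and the proteoglycan gene Ecm2 (0.979), Pdgfrb most like Col6a2 (0.981) and Fbln2 (0.977), and Cd34 most like Bmper (0.984) and Ebf1 (0.982). Mfap5 was most like Ccdc80 (0.981) and Col3a1 (0.967), Lum most like Col6a1 (0.984) and Sparc (0.979), Bgn most like Sparc (0.966) and Col1a2 (0.965), and Dcn most like Dpt (0.969) and Plac9a (0.964). Pi16 was most like Slco2a1 (0.926) and Enpp6 (0.902). Dpp4 was most like Unc119b (0.886) and Gng10 (0.876), neither a matrix gene, and the likeness of Dlk1 to Gal3st3 (0.711) and Tub (0.687) rests on values near the floor.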

How the data were processed

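Gonadal fat was digested with collagenase, live cells were sorted, and amplified cDNA from 50 ng of RNA was hybridised to 24 single-colour arrays, per the labels' protocols. Apart from CD11c, the sources used here name no gating marker. The deposited table holds log2 values of 41345 probe rows, which the authors made with RMA and oligo, per the submitters' processing notes; limma is also named there, its role and all versions are not given. Values ran from -0.02 to 13.1 and array medians from 2.96 to 3.15. RMA equalises arrays, so a shift shared by all genes is not visible. The number of arrays limits the precision. No scanner files were used.

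Of the rows, 23521 had 1 gene symbol, 1814 several and 16010 none in the platform table. limma 3.58.1 in R 4.3.3 was fitted to all 24 arrays with 9 group means, with Benjamini-Hochberg adjustment within a comparison over the 15496 tested genes, a threshold of 0.05 and two-sided tests. An array's median served as floor for dim rows. The genes and marker lists were chosen with earlier results of these data known, so list counts are descriptions. Named were all 10 genes, up to 3 called genes of each list with the largest differences, and the 2 most similar genes of each. Alternatives were filters, row choice, scaling, variance settings, the samples in the fit, a replicate block and leaving out arrays; leaving out the pair of high arrays together was chosen after seeing the data. On simulated data with known changes, between 88% (WL against ND CD11c- ATM) and 97% (HFD against ND ATDC) of 3-log2 changes were called, and 10% to 30% of 1-log2 changes. The simulated noise was independent between genes and few genes were changed, so these shares need not hold where many genes differ.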

Additional observations from a re-analysis of the deposited data

Results flagged for a closer look

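The diet effect on Lum differed between cell types by a test of the difference itself. HFD minus ND was 0.50 log2 units in PA and 3.77 in CD11c- ATM, and the difference between them was -3.27 ± 0.65 (limma, adjusted p 0.034). That call was lost in 7 of the 11 omissions of a single array and in a fit of the groups compared alone (adjusted p 0.078). Lum was higher on all 3 HFD arrays than on all ND arrays in both cell types. The general mesenchymal list read 5.96 to 7.17 in HFD and 4.31 to 5.57 in ND CD11c- ATM, and its part in this difference was not tested.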

How the results depend on the processing

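The number of the 10 genes called stayed within 1.5 times its value in most alternatives. The exceptions were as follows. With the stricter filter, PA against ATDC in ND mice had 0 genes lower in place of 1. With array weights, CD11c+ against CD11c- ATM in HFD mice had 1 lower in place of 0. With only the groups compared in the fit, 0 were called in HFD against ND CD11c- ATM (3 in the fit of all arrays), in WL against HFD CD11c+ ATM (3) and in the diet effect of PA minus CD11c- ATM (1). Without the arrays apart, HFD CD11c- ATM replicate 3 and HFD CD11c+ ATM replicate 1, the counts were 1 for HFD against ND CD11c- ATM, 2 for WL against HFD CD11c- ATM and 5 for WL against HFD CD11c+ ATM. The arrays apart were chosen for high values of these genes, which favours higher counts in WL against HFD.

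Leaving out 1 array at a time, counts of higher genes ran from 1 to 5 for HFD against ND CD11c- ATM, 4 to 7 for WL against ND CD11c- ATM, 0 to 1 for HFD against ND ATDC, 0 to 5 for WL against HFD CD11c+ ATM, 0 to 1 for WL against HFD CD11c- ATM and 5 to 9 for PA against CD11c- ATM in HFD mice. Counts of lower genes ran from 0 to 1 for PA against ATDC in ND and in HFD mice and for the diet effects of PA minus CD11c- ATM and of ATDC minus CD11c- ATM.

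Signs turned only in differences that were not called. Dcn in HFD against ND ATDC became -0.052 with quantile normalization, -0.070 with centred arrays and -0.19 with array weights. Without the arrays apart, Dpp4 became -0.37 in HFD against ND and 0.24 in WL against HFD CD11c- ATM. Single omissions gave Dpp4 ranges of -0.37 to 0.82 (HFD against ND CD11c- ATM), -0.52 to 0.26 (WL against ND CD11c- ATM), -0.95 to 0.24 (WL against HFD CD11c- ATM), -0.0026 to 0.55 (HFD against ND ATDC), -0.36 to 0.84 (CD11c+ against CD11c- ATM, HFD) and -1.20 to 0.011 (the same in WL). In HFD against ND ATDC they gave -0.52 to 2.26 for Pdgfra, -1.03 to 0.060 for Pdgfrb, -1.35 to 0.28 for Pi16, -0.52 to 0.53 for Dcn and -0.46 to 1.74 for Bgn. Pi16 ran from -0.33 to 0.87 in HFD against ND PA and, in WL against HFD CD11c- ATM, from -0.32 to 1.05, where Mfap5 ran from -0.15 to 0.86. The cause was not tested.

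Same-numbered arrays of different groups were hardly more alike than others: their deviations from the group means correlated at -0.131 to 0.252 (median 0.00787, 87 pairs). Those of other numbers had a median of -0.00689 (168 pairs), and 8 of 24 arrays correlated best with their own number. These pairs include arrays of different diet groups, which came from different mice. The check therefore cannot decide whether same-numbered samples within a diet group were paired. With the replicate number as a block, 2 genes were called in HFD against ND CD11c- ATM (Mfap5 at 2.83, adjusted p 0.057), 7 in WL against ND CD11c- ATM, 3 in WL against HFD CD11c+ ATM and 9 in PA against CD11c- ATM of HFD mice, with the other counts as in the main comparison.

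Over all genes, the number called ranged over the alternatives from 3 to 206 for HFD against ND CD11c- ATM (95 in the fit reported), 0 to 81 for ATDC (40), 177 to 1119 for PA (401), 31 to 570 for WL against HFD CD11c- ATM (459), 222 to 987 for WL against ND (957), 4 to 771 for WL against HFD CD11c+ ATM (206), 0 to 26 and 1 to 296 for CD11c+ against CD11c- ATM in HFD (1) and WL (208), 3170 to 6014 for PA against CD11c+ ATM (3902), and 13 to 234, 20 to 140 and 0 to 15 for the diet effects of PA minus CD11c- ATM (43), PA minus ATDC (41) and ATDC minus CD11c- ATM (9). Fits of only the groups compared have fewer samples. With 2 or 3 arrays a group, most simulated differences of 1 log2 unit were not called.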
